A study of Mus musculus with 6 samples.

Results

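The CCN genes encode a family of secreted matricellular proteins. Its members in these data are Ctgf (CCN2), Cyr61 (CCN1), Wisp2 (CCN5), Wisp1 (CCN4) and Nov (CCN3). They were chosen by gene symbol and make up 5 of the 26012 genes whose expression was measured, and all 5 passed the filter on low values. The data are RNA-seq of ventricular tissue from 6 male C57BL/6 mice that underwent myocardial infarction (MI), made by tying off the LAD coronary artery, at 8 weeks of age. At surgery, 3 hearts received an intra-cardiac injection of 10 μg of control mimic and 3 received 10 μg of miR-19a/19b mimic, and the hearts were collected 4 days later. Such a mimic is a double-stranded RNA made to stand in for a natural mature miRNA. Every heart was infarcted and injected, so the comparison is between mimics within infarcted hearts, with no uninjured heart analysed here. Each library came from 1 heart and holds all the cell types of the infarcted ventricle, so fewer cells of a type and less RNA per cell cannot be told apart.

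CCN proteins sit in the extracellular matrix, where they bind integrins, proteoglycans and growth factors and alter how cells respond to them, rather than serving as structural fibres. After cardiac injury they are made mainly by fibroblasts, vascular cells and stressed cardiomyocytes. Ctgf and Cyr61 are immediate response genes to TGF-beta, mechanical stretch and the transcriptional co-activators Yap and Taz, while Wisp1 and Wisp2 were first described as genes induced by Wnt signalling. Ctgf is a known target of the miR-17-92 cluster, the polycistronic transcript from which miR-19a and miR-19b are cut.

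miR-19a and miR-19b carry the same seed, the stretch of bases 2 to 8 that pairs with target mRNAs. The mature miRNAs of the cluster are shown with the seed in capitals because the seed decides which stretches of the CCN transcripts can be matched (RefSeq, build GRCm38.p6, chromosome 14, plus strand, chr14:115043684-115044496 from the first to the last). The exact strands of the injected mimics were not given in the sources used here, so the sequences are those of the natural miRNAs.
miR-19a-3p: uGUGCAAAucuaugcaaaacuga
miR-19b-3p: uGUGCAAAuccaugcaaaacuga
miR-18a-5p: uAAGGUGCaucuagugcagauag
miR-17-5p: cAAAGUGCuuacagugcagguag
miR-20a-5p: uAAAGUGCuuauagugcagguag
miR-92a-3p: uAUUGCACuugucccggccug

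Of the 5 CCN genes, Ctgf was the one with a match to the miR-19 seed in its annotated 3′ UTR. Matches were sought as the letters TTTGCAC (pairing with bases 2 to 8), TTGCACA (bases 2 to 7 followed by an A) or TTTGCACA (both) on the transcript strand, and in the same way for the other seeds of the cluster. The Ctgf match lay at chr10:24598633-24598639 (plus strand, GRCm38, GENCODE M21), at base 1558 of the 1608-base longest 3′ UTR, and was present in both of its annotated 3′ UTR forms. A match to the miR-18a seed, GCACCTT, overlapped it at chr10:24598636-24598642. The Ctgf sites and the sites of the other members are shown as 30-base windows of the transcript strand, with the seed match in capitals.
Ctgf, miR-19a/19b: aaaagttacatgTTTGCACctttctagttg
Ctgf, miR-18a: agttacatgtttGCACCTTtctagttgaaa
Wisp1, miR-17/20a: tcattaacttggGCACTTTctcctctcacc
Nov, miR-92a: aatgtgcttttaGTGCAATtttgaaaagga
The Wisp1 match lay at chr15:66920096-66920102 (plus strand), at base 642 of a 3747-base 3′ UTR and in 1 of its 2 annotated 3′ UTR forms. The Nov match lay at chr15:54753385-54753391 (plus strand), at base 880 of 1534. Neither of these seeds belongs to the injected miRNAs. The 3′ UTRs of Cyr61 (690 bases) and Wisp2 (709 bases) held no match to any of the 4 seeds searched, which says only that these letters are not in these sequences.

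**Figure D1:**
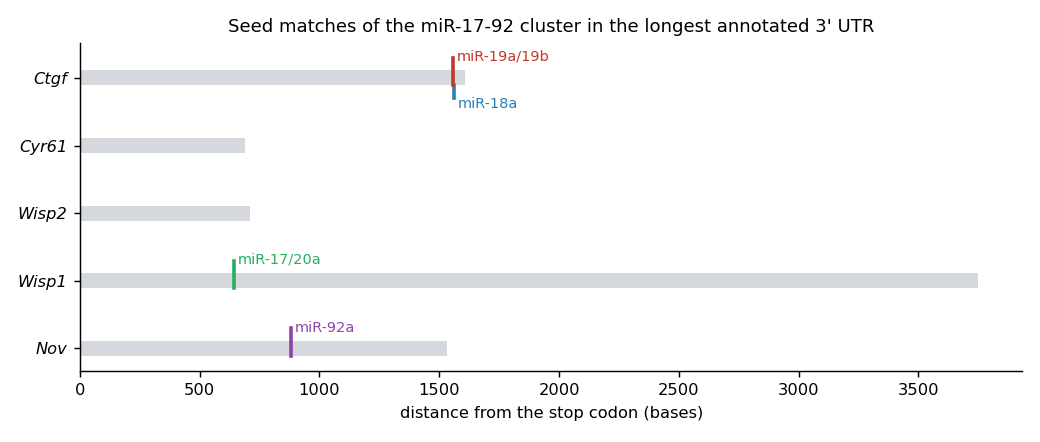
Position of seed matches in the longest annotated 3′ UTR of each CCN gene, as distance in bases from the stop codon. Grey bars are the 3′ UTRs and coloured ticks are matches to the seeds of miR-19a/19b, miR-18a, miR-17/20a and miR-92a. The miR-19a/19b match of Ctgf lies at 96.9% of its 3′ UTR, and Cyr61 and Wisp2 have no tick.

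A seed match of this kind was common. Of 15820 tested genes with an annotated 3′ UTR, 2907 (18.4%) held a 7-base or 8-base match to the miR-19 seed, against 1 of the 5 CCN genes. The median log2 fold change (miR-19a/19b mimic minus control mimic) was -0.03 over the genes with a match and 0.01 over the 12913 without, and 58.7% and 48.1% of them lay below 0. Ctgf, at -0.54, lay far below both medians. Wisp2 (-0.43), Cyr61 (-0.29) and Wisp1 (-0.26), which held no match to the miR-19 seed, also lay below both. Nov, also without a match, stood at 0.01. The part of the match in the value of Ctgf was not tested. Of the genes with a match, 2.44% were lower at an unadjusted p under 0.05, against 3.005% of those without.

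The number of reads assigned to genes ran from 19398196 to 23645308 per heart. Values are given as normalized counts, which are read counts divided by a size factor for each library (0.905 to 1.16). The factors did not follow the number of reads alone. The largest, 1.16, was that of miR-19a/19b mimic replicate 3 with 23204286 reads, while control mimic replicate 3 had 23645308 reads and a factor of 1.07. All 10 cardiomyocyte markers were detected. In miR-19a/19b mimic replicate 3 the cardiomyocyte markers summed to 340751 normalized counts, against 561994 to 990389 in the other 5 hearts, and the fibroblast markers to 853520, against 512982 to 725698. That heart differed from the other hearts of its group by a chi-square per degree of freedom of 109.8 and 122.7, where every other pair within a group gave between 9.485 and 24.42. Skeletal muscle genes were high in miR-19a/19b mimic replicate 1, with the myosin light chain gene Mylpf at 677 normalized counts and between 11.3 and 28.5 elsewhere. Results for the CCN genes are therefore given with and without miR-19a/19b mimic replicate 3 where that heart moved them.

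Together the CCN genes took 0.0910%, 0.115% and 0.109% of counted reads in control mimic replicates 1, 2 and 3, and 0.0793%, 0.0663% and 0.0838% in the miR-19a/19b mimic hearts. Between 45.9% and 57.9% of these reads were those of Ctgf. The 3 miR-19a/19b mimic hearts were all below the 3 control mimic hearts in this sum, which was not tested because the members were chosen with earlier results known.

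Ctgf, which promotes matrix production by fibroblasts and is widely used as a readout of TGF-beta and Yap activity, is located at chr10:24595442-24598683 on the plus strand (ENSMUSG00000019997). It reached 9893, 13759 and 13403 normalized counts in control mimic replicates 1, 2 and 3. In the miR-19a/19b mimic hearts it reached 9841, 7751 and 7720. The groups did not overlap, although control mimic replicate 1 and miR-19a/19b mimic replicate 1 were nearly level. The means were 12351 ± 2136 and 8437 ± 1216 (SD, n = 3 each), a difference of -31.7%. The log2 fold change was -0.54 with a SE of 0.17 (95% CI -0.93 to -0.15), which is a fold of 0.686 (0.524 to 0.899). By limma its unadjusted p was 0.0118, which placed it at rank 227 of the 21126 genes tested, and its p adjusted over all of them was 0.9996. Ctgf was thus not called at an adjusted p under 0.05.

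Ctgf was 1 of 5 CCN genes whose groups did not overlap and also 1 of 5 with an unadjusted p under 0.05, in both cases lower with miR-19a/19b mimic. Over all tested genes, the groups did not overlap for 9.2% (5.3% lower and 3.9% higher with miR-19a/19b mimic). An unadjusted p under 0.05 was reached by 4.01% of genes, 2.63% lower and 1.39% higher. At an adjusted p under 0.05, limma called 0 of 21126 genes (0%), with 848 at an unadjusted p under 0.05 and a smallest adjusted p of 0.396. edgeR's quasi-likelihood test also called 0 genes, with 837 at an unadjusted p under 0.05, whereas DESeq2 called 28 lower and 1 higher. No CCN gene was among those that DESeq2 called, and its adjusted p for Ctgf was 0.311.

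When single hearts were left out, the log2 fold change of Ctgf stayed between -0.70 and -0.46 and its unadjusted limma p between 0.00486 and 0.0522. The highest p was reached without control mimic replicate 3. Without miR-19a/19b mimic replicate 3 the log2 fold change was -0.48, with an adjusted p of 0.156. The depth behind Ctgf was 7518 to 14346 reads per heart, so counting error was small beside the spread between hearts of a group (a coefficient of variation of 17.3% in control mimic and 14.4% in miR-19a/19b mimic hearts). The gene span of Ctgf, introns included, shares 1667 bases with that of Gm15270, a transcript annotated on the opposite strand. Overlap of their exons was not examined. No strand setting of the counting was given in the sources used here, so reads may not be told apart where exons overlap. Gm15270 stood between 4.88 and 28.0 normalized counts per heart. No other CCN gene overlapped an annotated gene.

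Cyr61, an angiogenic member that supports endothelial adhesion and drives fibroblast senescence, is located at chr3:145646976-145649981 on the minus strand (ENSMUSG00000028195). It reached 4909, 4526 and 5896 normalized counts with control mimic against 4866, 3900 and 3760 with miR-19a/19b mimic. miR-19a/19b mimic replicate 1 lay within the control range, and the other 2 lay below it. The means were 5111 ± 707 and 4176 ± 602 (SD, n = 3 each). The log2 fold change was -0.29 with a SE of 0.15 (95% CI -0.62 to 0.04), and the limma p was 0.0762 unadjusted and 0.9996 adjusted. Left out in turn, single hearts moved the log2 fold change between -0.41 and -0.18, with the smallest difference without control mimic replicate 3. The unadjusted limma p ran from 0.0232, without miR-19a/19b mimic replicate 1, to 0.280, and the adjusted p stayed at 0.502 or above. Scaled by the total of counted reads, the unadjusted p over all 6 hearts was 0.0404. Without miR-19a/19b mimic replicate 3 the log2 fold change of Cyr61 was -0.22 (unadjusted p = 0.120).

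**Figure D2:**
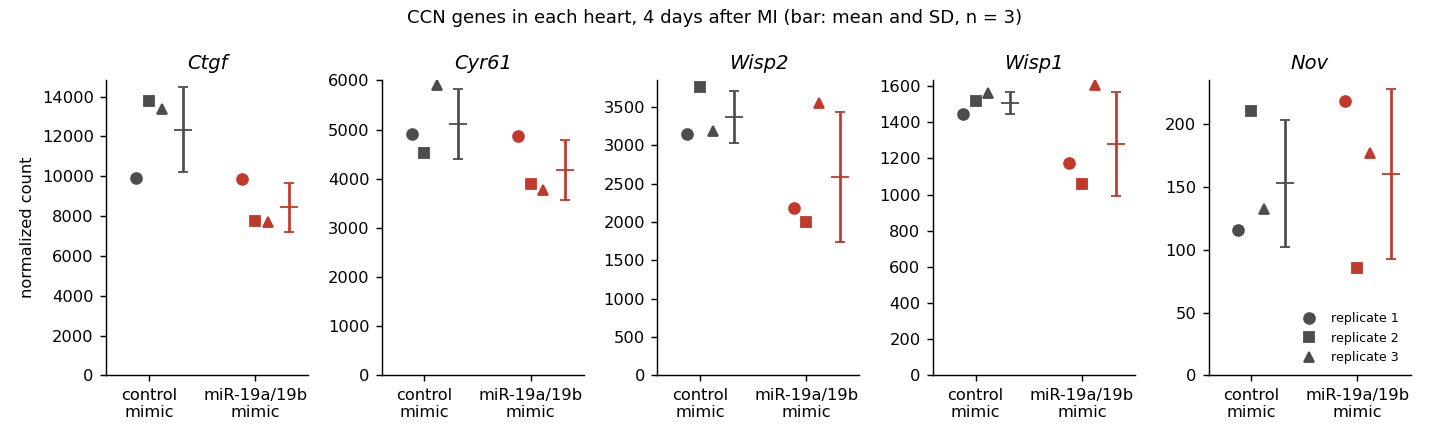
Normalized counts (linear axes that start at 0) of the 5 CCN genes in each heart, 4 days after MI. Points are single hearts (circle, square and triangle for replicates 1, 2 and 3), and bars are the mean and SD of 3 hearts. The miR-19a/19b mimic hearts all lie below the control mimic hearts for Ctgf, while for Wisp1 and Wisp2 the triangle of miR-19a/19b mimic replicate 3 lies with or above the controls.

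Wisp2, the member that lacks the C-terminal module of its relatives and opposes fibrosis in cardiac models, is located at chr2:163820861-163833146 on the plus strand (ENSMUSG00000027656). Its normalized counts were 3150, 3752 and 3188 in control mimic hearts. With miR-19a/19b mimic they were 2181, 2005 and 3553 in replicates 1, 2 and 3. The first and second of these lay below every control, and the last lay between the controls. The log2 fold change over all 6 hearts was -0.43 with a SE of 0.20 (95% CI -0.89 to 0.03), from means of 3363 ± 337 and 2580 ± 847 (SD, n = 3 each). Its limma p was 0.0655 unadjusted and 0.9996 adjusted.

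Wisp1, which is induced in infarcted hearts and promotes fibroblast proliferation, is located at chr15:66891320-66923201 on the plus strand (ENSMUSG00000005124). Control mimic hearts lay close together at 1443, 1517 and 1560 normalized counts. In the miR-19a/19b mimic hearts the values were 1173, 1059 and 1604, so that replicate 3 was above every control and the other 2 were below. The log2 fold change was -0.26 with a SE of 0.15 (95% CI -0.60 to 0.08), from means of 1507 ± 59.0 and 1279 ± 288 (SD, n = 3 each). Its limma p was 0.120 unadjusted and 0.9996 adjusted. The coefficient of variation was 3.91% in control mimic and 22.5% in miR-19a/19b mimic hearts.

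Wisp2 and Wisp1 were the CCN genes whose call turned on 1 heart. Without miR-19a/19b mimic replicate 3, the log2 fold change of Wisp2 was -0.68 (unadjusted p = 3.67e-05, adjusted p = 0.0121 by limma) and that of Wisp1 was -0.43 (unadjusted p = 0.000638, adjusted p = 0.0363). In that comparison of 3 hearts with 2, 154 genes (0.729%) were called lower and 361 (1.71%) higher, whereas no gene was called when any of the other 5 hearts was left out. Without miR-19a/19b mimic replicate 2 instead, the log2 fold changes were -0.27 for Wisp2 and -0.13 for Wisp1. The heart in which both genes stood at control level or above is the one with the lowest cardiomyocyte and highest fibroblast marker sums. Its macrophage marker sum was also the highest (100863, against 66683 to 93806 elsewhere). Without it, the median log2 fold change of the 10 cardiomyocyte markers was 0.58 in place of 0.11, with 4 of them called higher (Tnni3, Myl2, Myl3 and Pln), while the median of the fibroblast markers was -0.11. The part of these differences in the values of Wisp1 and Wisp2 was not tested.

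Nov, a member that counteracts Ctgf in several models of fibrosis, is located at chr15:54745702-54754039 on the plus strand (ENSMUSG00000037362). It had 83 to 216 reads per heart. Its normalized counts were 116, 211 and 133 with control mimic against 218, 85.6 and 177 with miR-19a/19b mimic, so the groups were mixed through each other. The means were 153 ± 50.6 and 160 ± 68.0 (SD, n = 3 each), with a log2 fold change of 0.01 (SE 0.35, 95% CI -0.78 to 0.80). With limma p-values of 0.977 unadjusted and 0.9996 adjusted, no difference was detectable, and the interval runs from a fold of 0.583 to one of 1.74. The sign of this value depended on the heart left out, as the log2 fold change ran from -0.26 to 0.41.

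**Figure D3:**
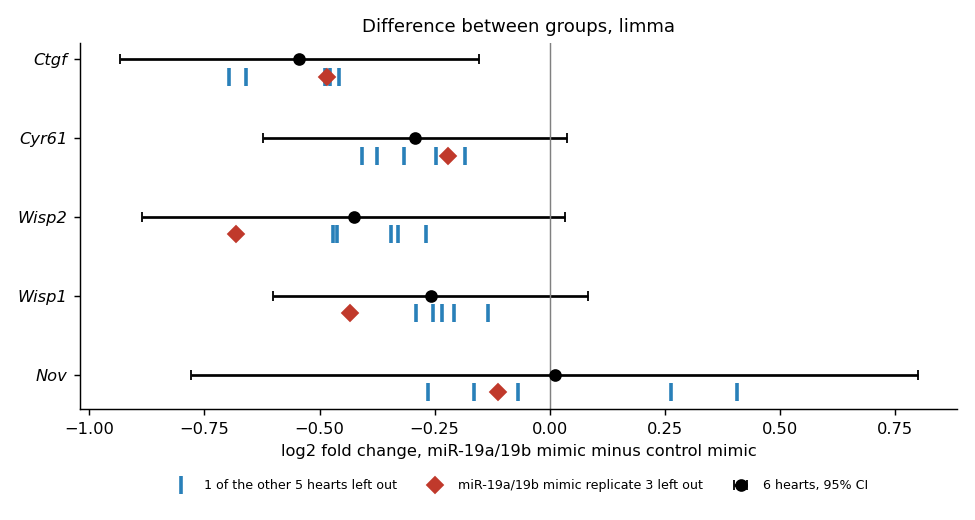
Log2 fold change of each CCN gene, miR-19a/19b mimic minus control mimic. Black points and bars are the estimate and 95% CI over 6 hearts, blue ticks leave out 1 of the other 5 hearts and red diamonds leave out miR-19a/19b mimic replicate 3. The interval of Ctgf (-0.93 to -0.15) is the one that stays below 0, and the red diamonds of Wisp2 (-0.68) and Wisp1 (-0.43) lie farther from 0 than their blue ticks.

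Compared per length of gene, the 5 members covered a wide range of levels. Ctgf had a median of 3449 normalized counts per kilobase over the 6 hearts (2698 to 4809), Cyr61 2326 (1862 to 2920) and Wisp2 1647 (1042 to 1950). Wisp1 had 268 (192 to 291) and Nov 54.0 (29.8 to 76.1). The ranges of Ctgf and Cyr61 overlapped, as did those of Cyr61 and Wisp2, while Wisp2, Wisp1 and Nov did not overlap each other. By mean level per kilobase, Ctgf ranked 268 of 16059 tested protein-coding genes, Cyr61 469, Wisp2 703, Wisp1 4335 and Nov 9759. Ctgf, Cyr61 and Wisp2 thus each stood above at least 95.6% of these genes, and Nov above 39.2%.

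Within the family, Ctgf made up 48.2% ± 3.68 of the summed level per kilobase with control mimic, against 44.4% ± 3.92 with miR-19a/19b mimic (SD, n = 3 each), a difference about as large as the SD of either group. Per kilobase, Ctgf stood above Cyr61 in every heart. The ratio of Ctgf to Cyr61 was 1.42, 2.15 and 1.60 in control mimic replicates 1, 2 and 3, and 1.43, 1.40 and 1.45 in the miR-19a/19b mimic hearts. The ratio lay within a narrow band with miR-19a/19b mimic, and control mimic replicate 1 fell in that band. The ratio of Wisp2 to Wisp1 lay between 5.33 and 7.10 in all 6 hearts, and that of Ctgf to Wisp2 was 1.46 in miR-19a/19b mimic replicate 3 and between 2.11 and 3.03 in the other 5.

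**Figure D4:**
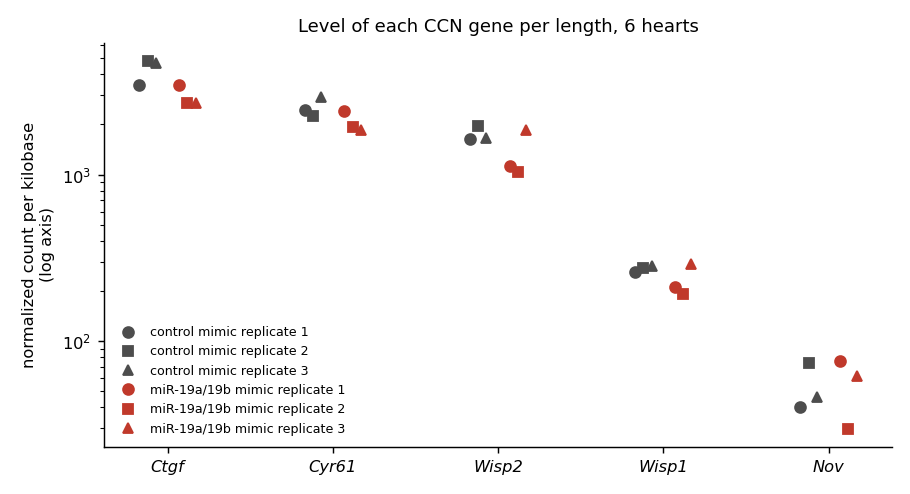
Normalized count per kilobase of gene length (log axis) of each CCN gene in each of the 6 hearts, grey for control mimic and red for miR-19a/19b mimic, with a marker shape for each replicate. Levels fall from Ctgf (median 3449) to Nov (median 54.0), with overlap between neighbours among Ctgf, Cyr61 and Wisp2.

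Across the 6 hearts, Wisp1 and Wisp2 followed each other and Ctgf and Cyr61 did so less closely. Pearson's r between log2(normalized count + 1) values was 0.96 for Wisp1 and Wisp2, 0.77 for Ctgf and Cyr61, and between 0.09 and 0.47 for the other pairs. These are descriptions over 6 hearts that share the group difference and, for Wisp1 and Wisp2, the separate position of miR-19a/19b mimic replicate 3. Among 11608 genes with a mean of at least 100 normalized counts, Wisp2 ranked 48 by its closeness to Wisp1. Cyr61 ranked 526 by its closeness to Ctgf. Many genes outside the family were thus as close in both cases.

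The genes closest to each member by the same measure differed between members. Tlk1 (r = 0.998), Col8a2 (0.981), which encodes a short-chain collagen, and Esyt2 (0.981) were closest to Ctgf. Tsr2 (0.990), Add3 (0.989) and the pericyte marker Cspg4 (0.983) were closest to Cyr61. The transcription factor gene Zeb2 (0.997), the tubulin gene Tubb3 (0.994) and the filamin gene Flna (0.992) were closest to Wisp1, and Git2 (0.998), Bcl10 (0.996) and Dock10 (0.996) to Wisp2. Triqk (0.978), Vps41 (0.974) and Islr (0.968) were closest to Nov. Col8a2 had 552, 830 and 697 normalized counts with control mimic against 519, 341 and 358 with miR-19a/19b mimic. It was picked for its closeness to Ctgf over these hearts, so the same order of groups is no separate result.

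Because Ctgf and Cyr61 are targets of Yap with its Tead partners, the other genes of that pathway were examined. In 22 further Yap/Tead targets the median log2 fold change was -0.13, with 16 below 0, against a median of 0.00 and 49.2% below 0 over all tested genes. Axl, Fjx1 and Tgfb2 had unadjusted limma p-values under 0.05, all lower with miR-19a/19b mimic, and with Asap1 they were the 4 whose groups did not overlap. Over all tested genes, 2.63% were lower at an unadjusted p under 0.05, and 5.3% were lower with groups that did not overlap. These shares and the 49.2% below 0 also stand beside the lists that follow. The count of 3 became 0 without control mimic replicate 3, 1 without miR-19a/19b mimic replicate 2 and 6 without miR-19a/19b mimic replicate 3. In the last of these comparisons 6.12% of all tested genes were lower at an unadjusted p under 0.05. Tgfb2, which encodes a TGF-beta ligand, had the smallest p of the list, with a log2 fold change of -0.42 (unadjusted p = 0.0142) from 1515 ± 99.1 to 1144 ± 210 normalized counts (SD, n = 3 each). The classical targets Ankrd1, Amotl2 and Lats2 had log2 fold changes of -0.15, -0.14 and -0.11, each with a 95% CI that spans 0. Ankrd1 had 47825, 50272 and 46657 normalized counts with control mimic against 53267, 55412 and 27766 with miR-19a/19b mimic. Its miR-19a/19b mimic replicates 1 and 2 thus lay above every control, and replicate 3 lay below. No target passed the adjusted test.

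The Hippo kinases and Tead factors themselves gave no unadjusted p under 0.05 in 16 genes. The co-activator genes Yap1 and Wwtr1 (Taz) had log2 fold changes of 0.01 (95% CI -0.31 to 0.32) and -0.08 (-0.31 to 0.16), and Tead1 had -0.16 (-0.56 to 0.25). Mob1b, a co-factor of the Lats kinases, had the smallest p of this list at 0.137 (log2 fold change -0.21). The RefSeq promoter of Cyr61, from 250 bases before to 50 after its start (chr3:145649936-145650235, minus strand, GRCm38.p6), held 1 copy of the Tead motif CATTCC, searched on both strands, 103 bases before the start. This motif was present in 14.7% of 32851 promoters of that length.

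TGF-beta signalling induces Ctgf in fibroblasts. Of 18 tested genes of this pathway, 14 lay below 0 and the median log2 fold change was -0.09. Ltbp2 and Bambi were lower at an unadjusted p under 0.05, and their groups did not overlap. Ltbp2, a matrix protein related to the TGF-beta binding proteins, stood at 14253 ± 1928 and 9815 ± 1732 normalized counts (SD, n = 3 each), a log2 fold change of -0.55 (unadjusted p = 0.0118 by limma). The response genes Tgfbi and Smad7 had log2 fold changes of -0.22 and -0.09, with unadjusted p-values of 0.302 and 0.527.

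Targets of the actin-regulated factors SRF and MRTF, which also act on Ctgf and Cyr61, had a median of -0.08 over 16 genes, 13 of them below 0. Cnn1, the smooth muscle calponin gene, was the member of that list with an unadjusted p under 0.05. It had 926, 635 and 883 normalized counts with control mimic against 634, 428 and 527 with miR-19a/19b mimic, with a log2 fold change of -0.62 (unadjusted p = 0.00819 by limma). Its groups did not overlap, by a narrow margin. Srf, Acta2 and Tagln had log2 fold changes of -0.08, -0.13 and -0.27, with 95% CIs that span 0. For Srf, miR-19a/19b mimic replicates 1 and 2 (2871 and 2875 normalized counts) lay above every control (2784, 2500 and 2769). Replicate 3, at 1987, lay below.

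Wnt signalling is the pathway from which Wisp1 and Wisp2 take their names. Over its 16 tested targets and effectors the median log2 fold change was -0.11, and 9 genes lay below 0. Nkd2, an inhibitor of the pathway, had the smallest p (log2 fold change -0.58, unadjusted p = 0.0113), and Rnf43, which removes Wnt receptors from the membrane, was lower with miR-19a/19b mimic at an unadjusted p of 0.0116 but at means of 10.1 and 3.59 normalized counts. The targets Axin2 and Lef1 and the inhibitor Nkd1 gave log2 fold changes of -0.10, -0.86 and 0.10, Lef1 from at most 10.7 normalized counts in any heart.

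The receptors and binding partners of CCN proteins gave 0 of 25 genes at an unadjusted p under 0.05, with a median log2 fold change of -0.11 and 18 below 0. Itgav, the integrin subunit shared by several CCN receptors, had the smallest p at 0.0629 (log2 fold change -0.24, 95% CI -0.50 to 0.02). Its partner Itgb3 had a log2 fold change of 0.11, and the Wnt co-receptor gene Lrp6, to which Ctgf binds, one of -0.11. Itgb1 was the one partner whose groups did not overlap, at 24967, 25215 and 27452 normalized counts against 23610, 22646 and 21586. In all 6 lists together 8 genes were lower and 0 higher at an unadjusted p under 0.05, and none passed the adjusted test. Without miR-19a/19b mimic replicate 3 these counts were 24 lower and 2 higher of 113 genes, and 2 passed the adjusted test, the SRF/MRTF target Fhl2 and the binding partner Vegfa, both higher. In that comparison 6.12% of all genes were lower and 8.41% higher at an unadjusted p under 0.05, against 2.63% and 1.39% with all hearts. The count of 8 became 4 without control mimic replicate 3 and 5 without miR-19a/19b mimic replicate 2. Without miR-19a/19b mimic replicate 3 the 6 list medians lay between -0.16 and -0.05, with that of the Yap/Tead targets at -0.06.

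**Figure D5:**
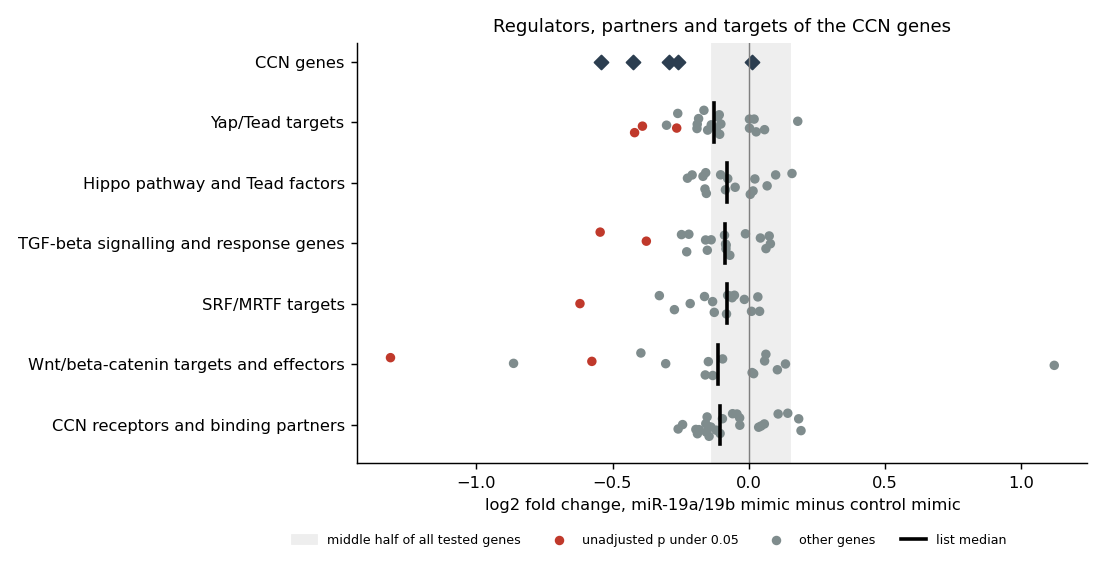
Log2 fold change (miR-19a/19b mimic minus control mimic) of each CCN gene and of each gene in 6 lists of their regulators, partners and co-targets. Points are genes, red where the unadjusted limma p is under 0.05, black bars are list medians and the grey band spans the quartiles of all tested genes (-0.13 to 0.15). Ctgf, Cyr61, Wisp1 and Wisp2 lie below the band and Nov within it, and the list medians run from -0.13 to -0.08.

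Markers of cells known to make CCN proteins were examined beside Ctgf. In 10 myofibroblast markers the median log2 fold change was -0.36. Of these, Col8a1, Ddah1, Cilp and Thbs4 were lower at an unadjusted p under 0.05, as were 2.63% of all tested genes. Postn, Cthrc1 and Fap, the first 3 markers of the list, had log2 fold changes of -0.28, -0.05 and 0.21. Their unadjusted limma p-values were 0.285, 0.752 and 0.242. Of the 10 markers, 8 lay below 0, while Fap and Chad lay above. The summed level of the 10 markers was 97700 to 135309 normalized counts with control mimic, against 78508 to 107571 with miR-19a/19b mimic, so the groups overlapped. The median over 10 fibroblast markers was -0.02, with 0 genes at an unadjusted p under 0.05. Medians were -0.09 for smooth muscle and pericyte, 0.00 for endothelial, -0.11 for macrophage and 0.11 for cardiomyocyte markers (10 genes each). The cardiomyocyte median changed sign with single hearts left out, from -0.19 without miR-19a/19b mimic replicate 1 and -0.13 without miR-19a/19b mimic replicate 2 to 0.58 without miR-19a/19b mimic replicate 3, and the fibroblast median ran from -0.11 to 0.08. All the markers of these lists were detected, and the part of cell composition in the values of Ctgf was not tested. The count of myofibroblast markers lower at an unadjusted p under 0.05 hung on single hearts. It was 1 of 10 without control mimic replicate 2, control mimic replicate 3 or miR-19a/19b mimic replicate 2. Without miR-19a/19b mimic replicate 3 it was 5 of 10, where 6.12% of all tested genes were lower. The median log2 fold change of these markers was -0.22 without control mimic replicate 3 and -0.19 without miR-19a/19b mimic replicate 2.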

How the data were processed

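Polyadenylated RNA of 6 hearts was sequenced in pairs of reads. The authors discarded reads of poor quality or with adapters, aligned the remainder by STAR (2.5.1b) and counted reads per gene with HTSeq (0.6.0). The signal deposited by the authors is a read count scaled by a size factor per library (a normalized count). Multiplied by that factor, 100% of values came out whole (tolerance 0.001), which gave back the reads. The submitters' processing notes name mm9 and DESeq2 (1.10.1), while the study's methods name edgeR for differential expression. The coordinates in the table match GENCODE M21 (GRCm38) instead. Of its 26012 genes, 25884 were found there by gene ID, 82.7% of them with the same start and end, including all 5 CCN genes. The authors' own fold changes and p-values, and a second table of genes selected by them, were not used.

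Samples were grouped by their labels, and each library is a separate heart. Log2(normalized count + 1) was tested by limma (3.58.1, in R 4.3.3), using a mean-variance trend, for the 21126 genes whose mean was 1 or more, with Benjamini-Hochberg adjustment. All tests were two-sided, and with 3 hearts against 3 an exact permutation test of a single gene cannot go below p = 0.10. edgeR (4.0.16) and DESeq2 (1.42.0) were run on recovered reads as alternatives. The tests were checked on simulated data. Replicate numbers are not stated to link hearts of the 2 groups.

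Levels between genes were compared per kilobase of the gene length in the authors' table. Seed matches were sought in the longest 3′ UTR of each gene in GENCODE M21. miRNA and promoter sequences are from RefSeq (GRCm38.p6). Named were the CCN genes, the first 3 genes and the one with the smallest p of each pathway list, the 3 closest genes of each member by Pearson's r, and overlapping genes. An item that this rule names is not reported here. Other genes were named after their values were seen. The members, lists and tests were chosen with earlier results of these data known. Counts of list genes with a heart left out were added after seeing the data.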

Additional observations from a re-analysis of the deposited data

How the results depend on the processing

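Of 201 repeats of the results under 17 alternative settings, 189 kept the direction and the side of the threshold or moved little. For Ctgf, Cyr61, Wisp1 and Wisp2 the log2 fold change stayed below 0 under all of them. Nov turned from 0.0102 to -0.0143 when scaled by the total of counted reads. With single hearts left out, the log2 fold change of Nov ran from -0.26 to 0.41, that of Wisp1 from -0.43 to -0.13 and that of Wisp2 from -0.68 to -0.27, and the last 2 genes passed an adjusted p under 0.05 without miR-19a/19b mimic replicate 3 alone. Genes called lower numbered 0 with limma and 28 with DESeq2's Wald test, and 0 to 154 with a heart left out. Genes called higher numbered 0 with limma and 1 with DESeq2, and 0 to 361 with a heart left out. With a heart left out, the list medians of the log2 fold change ran from -0.170 to -0.0684 for Wnt, -0.199 to -0.0587 for Yap/Tead, -0.128 to -0.0411 for Hippo, -0.164 to -0.0727 for TGF-beta, -0.154 to -0.0683 for SRF/MRTF and -0.138 to -0.0560 for CCN partners. Why these values moved was not tested.

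With the replicate number as a block, limma called 0 genes, with 641 rather than 848 at an unadjusted p under 0.05, and the unadjusted p was 0.0395 for Ctgf, 0.119 for Cyr61, 0.113 for Wisp1, 0.0828 for Wisp2 and 0.980 for Nov. Deviations of hearts with the same number correlated at -0.01, -0.02 and -0.11, and those of hearts with different numbers at -0.10 to 0.12. No heart was closest to the heart with its own number. With 3 hearts per group these values cannot show whether the hearts were linked. Nov had the lowest depth, 83 to 216 reads per heart, and its coefficient of variation between hearts was 33.0% in control mimic and 42.4% in miR-19a/19b mimic hearts.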

Other observations

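Wisp3, the family member outside the 5 genes described here, was near the limit of detection. Its normalized counts were 5.53, 11.7 and 9.34 in control mimic hearts and 5.38, 7.22 and 8.64 in miR-19a/19b mimic hearts. The log2 fold change was -0.25 (95% CI -1.17 to 0.66, unadjusted p = 0.544 by limma), so no difference was detectable at this depth.

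Single genes of the cell type marker lists are given here, of which Thbs4 was also named above. The scavenger receptor gene Cd163 of resident macrophages was higher with miR-19a/19b mimic, with a log2 fold change of 0.61 (unadjusted p = 0.0178 and adjusted p = 0.9996 by limma), at 807 ± 210 against 1218 ± 237 normalized counts (SD, n = 3 each). Of the 10 macrophage markers it belongs to, 7 lay below 0, with a median of -0.11. The keratin gene Krt18 was lower, with a log2 fold change of -0.65 (unadjusted p = 0.0143 by limma). Its normalized counts were 218, 301 and 220 in control mimic hearts and 160, 198 and 117 in miR-19a/19b mimic hearts. The 10 epicardial markers that Krt18 was listed with had a median of 0.37, with 2 below 0. This median hung on 1 heart. Without control mimic replicate 2 it was 0.02, with 5 below 0 and 0 lower at an unadjusted limma p under 0.05. Thbs4, a matricellular thrombospondin gene of the myofibroblast list, stood at 4454 ± 846 and 2400 ± 1192 normalized counts (SD, n = 3 each), a log2 fold change of -0.99 (unadjusted p = 0.0103 by limma). Neither Cd163 nor Krt18 nor Thbs4 passed the adjusted test. The skeletal muscle myosins Myh1 and Myh2 stood at 308 and 246 normalized counts in miR-19a/19b mimic replicate 1 and at most 1.87 in any other heart.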
